A study of Mus musculus with 20 samples.

Results

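The 10 genes described here encode proteins of the piRNA pathway. They are Mael, Rnf17, Tdrd1, Tdrd12, Tdrd9, Ddx4, Piwil2, Mov10l1, Fkbp6 and Asz1, and they were taken by symbol from the count tables. All 10 were in the embryo and embryoid body (EB) tables and 9 were in the mouse embryonic stem cell (mESC) table, which has no entry for Asz1, out of 25199 genes present in at least 1 table. piRNAs are small RNAs that guide PIWI proteins to transposon transcripts and, in fetal male germ cells, to the transposon loci that are then DNA methylated. Their precursors are unwound and cut, loaded onto PIWI proteins and amplified in perinuclear granules held together by Tudor domain proteins. In mice most genes of the pathway are expressed chiefly in germ cells, and their promoters are usually CpG rich and silenced in somatic tissue.

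RNA was sequenced from Zmym2-/- (KO, n = 6) and wild-type (WT, n = 6) whole C57BL/6 embryos at E8.5. Each genotype had 3 male and 3 female embryos. The other libraries came from Zmym2-/- (KO, n = 2) and non-target control (NT, n = 2) lines of V6.5, an mESC line of C57BL/6x129/SvJae origin, both as mESCs in serum and LIF at day 0 and as EBs, aggregates in which the cells differentiate, at day 3. The embryos carried an early frameshift allele made with CRISPR-Cas9, and the KO lines were made with the same guide RNA while the NT lines received a non-targeting guide. Each line was expanded from a single colony, so 2 lines stand for a genotype, and no line with Zmym2 restored was analysed here. ZMYM2 is a zinc finger protein of chromatin repressor complexes, and the comparison of KO with control asks which genes it keeps low. In whole embryos and EBs, a change in the number of cells that express a gene and a change in RNA per cell cannot be told apart.

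The libraries held 32016880 to 64057608 counts each. Levels are given as CPM (counts scaled to the library's total, after TMM adjustment), and differences as log2 fold changes with standard errors from edgeR's quasi-likelihood test, with calls made at 0.05 after Benjamini-Hochberg adjustment over all genes of the table. Zmym2 itself was at 25.4 to 67.1 CPM in KO embryos (median 47.7 CPM) and at 50.3 to 125 CPM in WT embryos (median 87.9 CPM), ranges that overlapped (log2 fold change -0.91 ± 0.25, adjusted p = 0.226). In the lines it was lower in KO than in NT, by a log2 fold change of -1.296 in mESCs and -1.55 in EBs. A frameshift need not lower the transcript, so these levels are a limited check of the labels. KO embryos 4 to 6, which are the female KO embryos, differed from KO embryos 1 to 3 in tissue markers. Summed over 4 neural genes they had 4.21 to 30.4 CPM against 71.7 to 118 CPM in KO embryos 1 to 3 and 25.2 to 88.2 CPM in WT embryos, and summed over 4 heart genes 22.9 to 271 CPM against 457 to 787 CPM and 265 to 754 CPM. KO embryos 5 and 6 were below every WT embryo in both sums. Other sums were higher. Over 4 visceral endoderm genes KO embryos 4 to 6 had 2668 to 4605 CPM, against 1158 to 1883 CPM in KO embryos 1 to 3 and 997 to 2481 CPM in WT embryos. Over 6 pluripotency genes KO embryos 5 and 6 had 239 and 469 CPM, against 34.9 to 124 CPM in WT embryos. Over 4 somite genes KO embryos 4 to 6 were lower, at 6.65 to 47.4 CPM against 60.8 to 88.9 CPM in KO embryos 1 to 3. WT embryos had 15.6 to 90.0 CPM in that sum. Sums over motile cilia and erythroid genes overlapped between KO embryos 4 to 6 and 1 to 3. The cilia sum was 18.2 to 147 CPM in KO embryos, highest in KO embryo 6, and 12.5 to 37.0 CPM in WT embryos.

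Promoter sequences are shown for the members on which the results turn, to set side by side the promoters of genes whose levels differed in unlike ways. Each is the RefSeq sequence (GRCm38.p6) of 300 bases, from 250 before to 50 after the start site, printed 5′ to 3′ on the gene's strand. Capitals mark matches to CACGTG, the E-box read alike on both strands, and to TCCCGC, an E2F core motif printed as GCGGGA where it lies on the opposite strand. The motifs did not overlap each other in these sequences. Mael, Ddx4 and Tdrd1 were higher in KO embryos, Fkbp6 had the largest difference in the lines, and Tdrd12 was higher in the lines without a call in embryos.
Mael (chr1:166238695-166238994, minus strand): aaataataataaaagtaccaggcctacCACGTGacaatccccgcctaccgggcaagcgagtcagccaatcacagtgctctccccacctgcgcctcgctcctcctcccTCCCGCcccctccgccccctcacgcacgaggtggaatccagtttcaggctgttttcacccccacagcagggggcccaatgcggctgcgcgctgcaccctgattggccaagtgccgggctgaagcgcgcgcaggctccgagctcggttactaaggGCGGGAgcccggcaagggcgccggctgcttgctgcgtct
Ddx4 (chr13:112652261-112652560, minus strand): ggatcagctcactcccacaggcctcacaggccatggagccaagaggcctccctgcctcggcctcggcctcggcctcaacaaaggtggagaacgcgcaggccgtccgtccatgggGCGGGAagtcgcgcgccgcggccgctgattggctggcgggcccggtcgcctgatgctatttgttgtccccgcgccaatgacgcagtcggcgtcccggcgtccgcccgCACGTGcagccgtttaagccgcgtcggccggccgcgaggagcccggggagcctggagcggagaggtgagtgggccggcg
Tdrd1 (chr19:56825959-56826258, plus strand): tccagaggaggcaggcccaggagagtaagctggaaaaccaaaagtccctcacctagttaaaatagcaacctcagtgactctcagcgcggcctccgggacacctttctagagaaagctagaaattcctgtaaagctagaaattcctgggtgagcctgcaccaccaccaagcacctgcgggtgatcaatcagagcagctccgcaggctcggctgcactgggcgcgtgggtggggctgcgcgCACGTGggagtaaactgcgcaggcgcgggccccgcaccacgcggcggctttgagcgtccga
Fkbp6 (chr5:135349995-135350294, minus strand): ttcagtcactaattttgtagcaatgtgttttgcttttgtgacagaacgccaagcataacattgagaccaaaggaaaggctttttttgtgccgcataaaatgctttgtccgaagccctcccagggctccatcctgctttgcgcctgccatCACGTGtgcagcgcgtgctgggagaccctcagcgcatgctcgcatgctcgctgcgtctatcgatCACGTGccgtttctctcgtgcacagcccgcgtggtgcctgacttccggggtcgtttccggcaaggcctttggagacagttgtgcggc
Tdrd12 (chr7:35537695-35537994, minus strand): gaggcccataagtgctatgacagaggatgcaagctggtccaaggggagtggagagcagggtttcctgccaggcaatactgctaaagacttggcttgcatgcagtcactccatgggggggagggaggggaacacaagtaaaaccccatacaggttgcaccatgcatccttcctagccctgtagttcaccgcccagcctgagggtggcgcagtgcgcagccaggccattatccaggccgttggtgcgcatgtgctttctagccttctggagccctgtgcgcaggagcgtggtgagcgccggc

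Of the 10 members, 8 matched an entry in the promoter table, while Rnf17 and Piwil2 did not. Tdrd1 had 3 entries, and Tdrd12 and Fkbp6 had 2 each. Only the entry nearest to the annotated start of the gene was used, and the others were not examined. The shares over all promoters count every entry. The E-box was present in 6 of the 8, namely Mael, Tdrd1, Tdrd9, Ddx4, Mov10l1 and Fkbp6, and it was present in 7.15% of all 32851 promoters of that length. The members were also richer in CpG, with 9 to 38 CpG each against a median of 7 over all promoters. Among the promoters with at least 9 CpG, 10.8% held an E-box. The E2F core was present in Mael and Ddx4 and in 19.98% of all promoters, or 39.0% of those with at least 9 CpG. A match describes the letters in this window and is not a measured binding site. Of the 6 members with an E-box, Mael, Tdrd1 and Ddx4 were called higher in embryos by edgeR and Tdrd9, Mov10l1 and Fkbp6 were not. Among the same 6, Mael and Fkbp6 were called higher and Ddx4 lower in mESCs. Mael, Ddx4, Mov10l1 and Fkbp6 were called higher in EBs. Tdrd12 and Asz1 had neither motif in the sequences used. Tdrd12 was called higher in mESCs and EBs but not in embryos, and Asz1 was called in neither embryos nor EBs. A relation between motifs and calls was not tested.

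In KO embryos, 4 of the 10 members were higher than in WT embryos and none was lower, where 0.510% of the 22729 genes tested were called higher and 0.0132% lower. The members called were Mael, Rnf17, Tdrd1 and Ddx4. Members were chosen with earlier results of these data known, so the contrast with all genes, here and in the lines, is a description. The median log2 fold change was 1.38 over the 10 members and 0.02 over all genes, and the 6 members that were not called had log2 fold changes between 0.05 and 1.40. For the same 4 members every KO embryo lay above every WT embryo, which held for 1.03% of all genes, and for the other 6 the ranges overlapped. The reverse, every KO embryo below every WT embryo, was found for no member and for 0.145% of all genes.

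Mael encodes MAELSTROM, a protein of germ cell granules needed for transposon silencing in the mouse testis (ENSMUSG00000040629, GRCm38, chromosome 1, 166201201 to 166238747, minus strand). It had 3.71, 4.60, 6.25, 2.18, 2.23 and 1.34 CPM in KO embryos 1 to 6, against 0.236, 0.165, 0.124, 0.111, 0.0969 and 0.139 CPM in WT embryos 1 to 6. The lowest KO embryo was above the highest WT embryo, and the WT values rested on 4 to 9 counts each. The log2 fold change was 4.53 ± 0.43 (adjusted p = 0.000149), a 23.1-fold difference. Among the KO embryos, the 3 males had the 3 highest levels.

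Rnf17 (ENSMUSG00000000365, chromosome 14, 56402581 to 56525032, plus strand) encodes a RING finger and Tudor domain protein of male germ cell granules. It had 32.6, 37.3, 35.2, 31.5, 28.9 and 30.6 CPM in KO embryos 1 to 6, against 8.77, 10.2, 6.59, 9.37, 5.67 and 5.38 CPM in WT embryos 1 to 6. The KO embryos lay close together at 32.7 ± 3.11 CPM (SD, n = 6), and WT embryos averaged 7.66 ± 2.05 CPM (SD, n = 6). The log2 fold change was 2.09 ± 0.18 (adjusted p = 0.000142).

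Tdrd1 (ENSMUSG00000025081, chromosome 19, 56826209 to 56870012, plus strand) encodes a Tudor domain protein that binds methylated arginines of PIWI proteins. It had 8.17, 6.08, 7.62, 2.96, 3.27 and 4.03 CPM in KO embryos 1 to 6, against 1.60, 1.60, 1.03, 0.887, 1.26 and 1.22 CPM in WT embryos 1 to 6. The groups did not overlap, and the 3 male KO embryos were again above the 3 female KO embryos. The log2 fold change was 2.08 ± 0.30 (adjusted p = 0.00445).

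Ddx4, the mouse Vasa gene (ENSMUSG00000021758, chromosome 13, 112598333 to 112652475, minus strand), encodes an RNA helicase that is a standard marker of germ cells. It had 15.8, 20.5, 21.5, 17.1, 22.5 and 22.3 CPM in KO embryos 1 to 6, against 4.53, 8.11, 2.45, 4.96, 2.08 and 1.70 CPM in WT embryos 1 to 6. Here the male and female KO embryos did not separate, and the WT embryos varied more than the KO embryos relative to their mean. The log2 fold change was 2.33 ± 0.35 (adjusted p = 0.00537). Summed over 8 markers of primordial germ cells, KO embryos had 67.9 to 454 CPM (median 165 CPM) and WT embryos 64.6 to 280 CPM (median 156 CPM), with all 8 detected in both groups. KO embryos 1 to 3, at 67.9 to 105 CPM in that sum, were below 5 of the 6 WT embryos, while their Ddx4 was above all of them. These 8 markers are not particular to germ cells. They include Pou5f1, also 1 of the pluripotency markers used here, and their sum was 1797 to 1849 CPM in NT mESCs. The part of germ cell number in the members' levels was not tested.

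**Figure D1:**
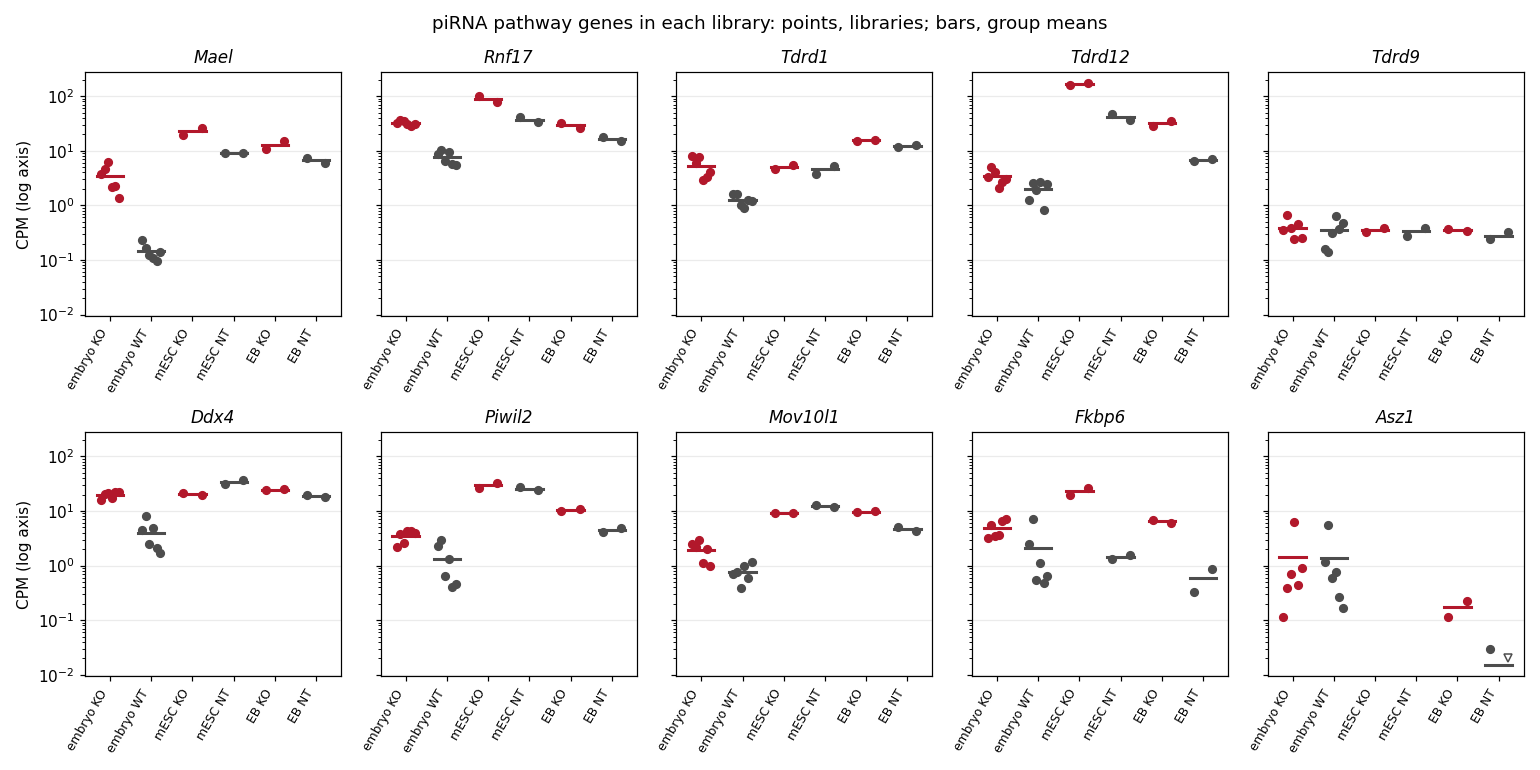
CPM of each gene (log axis) in every library, in KO (red) and control (grey) embryos, mESCs and EBs, with bars at group means and an open triangle for the EB library with no Asz1 count. Mael, Rnf17, Tdrd1 and Ddx4 separate the embryo groups without overlap, whereas Tdrd9 lies under 1 CPM in every library.

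Piwil2, which encodes the PIWI protein MILI, had 2.24, 3.77, 2.55, 4.25, 4.31 and 3.95 CPM in KO embryos 1 to 6, against 2.25, 2.92, 0.638, 1.303, 0.412 and 0.465 CPM in WT embryos 1 to 6. WT embryos 1 and 2 reached the lower KO embryos, and the log2 fold change of 1.40 ± 0.47 was not called (adjusted p = 0.313). Mov10l1, the helicase that binds piRNA precursors, had 0.981 to 2.897 CPM in KO embryos (median 2.13 CPM) and 0.391 to 1.18 CPM in WT embryos (median 0.738 CPM). Its log2 fold change of 1.35 ± 0.34 was not called by edgeR (adjusted p = 0.162) and was called by DESeq2 (1.37, adjusted p = 0.00627), which called 1.47% of all genes higher.

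Fkbp6, a co-chaperone used in PIWI loading, had 3.15, 5.50, 3.55, 3.57, 6.54 and 7.09 CPM in KO embryos 1 to 6, against 2.43, 7.21, 0.535, 1.11, 0.485 and 0.651 CPM in WT embryos 1 to 6. WT embryo 2 was above every KO embryo and the other 5 WT embryos were below all of them. The log2 fold change was 1.25 ± 0.62 (adjusted p = 0.436), and without WT embryo 2 it was 2.26 (adjusted p = 0.0490). WT embryo 2 was also the highest WT embryo for Ddx4, Piwil2 and Asz1.

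Tdrd12, which encodes a Tudor domain protein with a helicase region, had 2.10 to 5.08 CPM in KO embryos (median 3.19 CPM) and 0.824 to 2.69 CPM in WT embryos (median 2.18 CPM). The log2 fold change was 0.79 ± 0.32 (adjusted p = 0.382). Tdrd9, the helicase partner of the nuclear PIWI protein in fetal testis, was low in both groups, at 0.244 to 0.655 CPM in KO embryos (median 0.370 CPM) and 0.138 to 0.638 CPM in WT embryos (median 0.336 CPM). Asz1, which encodes an ankyrin repeat protein at the mitochondrial surface where piRNAs are processed, had 0.115, 0.396, 0.716, 6.16, 0.446 and 0.891 CPM in KO embryos 1 to 6, against 1.15, 5.50, 0.597, 0.749, 0.267 and 0.170 CPM in WT embryos 1 to 6. A single embryo of each genotype was high, and the log2 fold change of 0.05 ± 0.96 has an error too wide to show a difference in either direction.

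The embryos came from litters and name series that are not balanced over genotype. Names begin with H or J, of unstated meaning, with H in 2 KO and 4 WT embryos and J in 4 KO and 2 WT embryos. In 3 litters, read from the names, both genotypes were present, and 6 members (Mael, Rnf17, Tdrd1, Ddx4, Piwil2 and Mov10l1) were higher in the KO embryo than in every WT littermate in all 3, as were 13.4% of all genes. With litter as a block over these 7 embryos no member was called by edgeR, where 0.00461% of all genes (1 gene) were called higher, with log2 fold changes of 3.60 for Mael (adjusted p = 0.153), 1.84 for Rnf17 (adjusted p = 0.153), 1.41 for Tdrd1 (adjusted p = 0.277) and 2.13 for Ddx4 (adjusted p = 0.188). Within the H series no member was called, where 0.00485% of all genes were called higher, and within the J series 2 were, Rnf17 and Ddx4, where 0.209% were, while all 10 log2 fold changes were positive in each series. Without KO embryos 4 to 6, a choice made after seeing the data, Mael, Rnf17 and Tdrd1 were called and Ddx4 was not (2.28, adjusted p = 0.0537), where 0.357% of all genes were called higher. Without KO embryos 5 and 6, 4 members were called, where 0.337% were.

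No member had a difference between KO and WT that itself differed between males and females by edgeR (0 called, 5 at an unadjusted p under 0.05, 2 by DESeq2), and edgeR called no gene of the 22729, 0% of them. By the unadjusted edgeR p, 2 members were higher and 3 lower, beside 2334 and 2733 of the 22729 genes. DESeq2 called 5.51% of all genes higher and 5.86% lower for this interaction, and its 2 members were Fkbp6 and Asz1, both with a smaller log2 fold change in males. Fkbp6 had 3.15 to 5.50 CPM in male KO and 0.535 to 7.21 CPM in male WT embryos, and 3.57 to 7.09 CPM in female KO and 0.485 to 1.11 CPM in female WT embryos. The interaction was -2.68 ± 0.97 for Fkbp6 and -5.24 ± 1.55 for Asz1 on the log2 scale (edgeR adjusted p = 0.138 and 0.0887). For Mael, Rnf17, Tdrd1, Tdrd12 and Mov10l1 every male KO embryo was above every female KO embryo, as for 13.5% of all genes. Their interactions were not called, at 0.79 ± 0.56, -0.12 ± 0.34, 0.77 ± 0.41, 0.71 ± 0.61 and 1.44 ± 0.58 in that order (adjusted p = 0.172 to 0.877). Fitted apart, 4 members were called in males (Mael, Rnf17, Tdrd1 and Mov10l1) and 1 in females (Mael), where 0.604% of genes in males and 0.0512% in females were called higher. All 3 male KO embryos came from 1 litter, so sex and litter cannot be told apart among KO embryos.

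**Figure D2:**
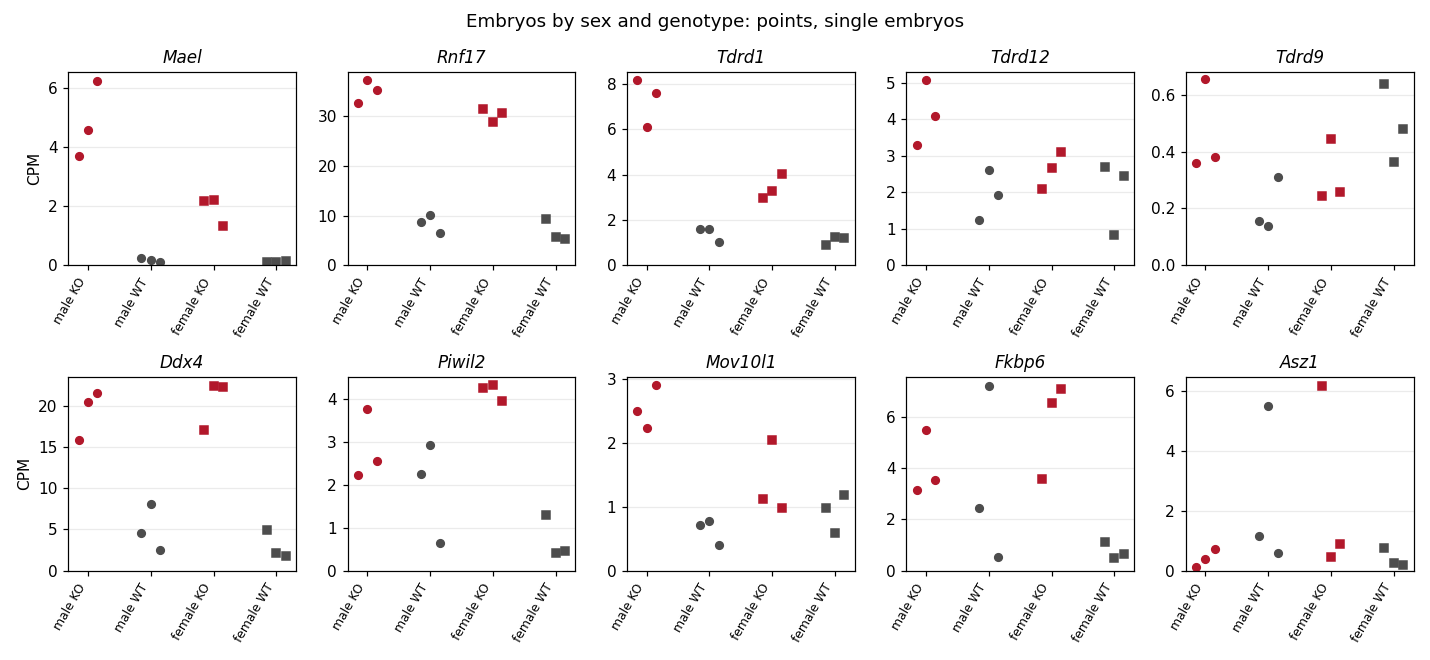
CPM of each gene in single embryos (linear axes from 0), split by sex and genotype, with KO in red left of WT in grey. The 3 male KO embryos are above the 3 female KO embryos for Mael, Rnf17, Tdrd1, Tdrd12 and Mov10l1, and the high WT male for Fkbp6, Piwil2 and Asz1 is WT embryo 2.

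In mESCs, 4 of the 9 members present were higher in KO lines and 1 was lower, where 10.3% of 20159 genes were called higher and 8.94% lower. Fkbp6, Tdrd12, Mael and Rnf17 were higher and Ddx4 was lower. The median log2 fold change was 0.19 over the 9 members and 0.01 over all genes. Both KO lines were above both NT lines for 4 members and below them for 2 (Ddx4 and Mov10l1), which held for 30.7% and 29.3% of all genes.

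Fkbp6 (ENSMUSG00000040013, chromosome 5, 135291704 to 135350044, minus strand) had 19.6 and 26.0 CPM in KO mESCs, against 1.31 and 1.56 CPM in NT mESCs. This was the largest difference among the members in mESCs, with a log2 fold change of 3.99 ± 0.20 (adjusted p = 1.17e-07). Tdrd12 (ENSMUSG00000030491, chromosome 7, 35469098 to 35537745, minus strand) had 158 and 174 CPM in KO mESCs, against 46.4 and 36.5 CPM in NT mESCs. Its log2 fold change was 2.00 ± 0.11 (adjusted p = 2.13e-07). Both genes were thus already transcribed in NT mESCs, Fkbp6 near 1 CPM and Tdrd12 well above it.

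Mael had 19.8 and 25.8 CPM in KO mESCs, against 9.23 and 9.12 CPM in NT mESCs (log2 fold change 1.31 ± 0.16, adjusted p = 7.71e-05). Rnf17 had 98.5 and 77.8 CPM in KO mESCs, against 41.1 and 33.2 CPM in NT mESCs (1.25 ± 0.13, adjusted p = 2.91e-05). For both genes the NT mESCs had more CPM than any WT embryo, though the tables were scaled separately. Ddx4 moved the other way, with 20.9 and 19.3 CPM in KO mESCs, against 30.7 and 37.2 CPM in NT mESCs (-0.75 ± 0.13, adjusted p = 0.00131).

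Mov10l1 had 9.01 and 9.27 CPM in KO mESCs, against 12.8 and 11.7 CPM in NT mESCs, and was not called (log2 fold change -0.42 ± 0.15, adjusted p = 0.0713). It was called in the fit of all 8 line libraries together (adjusted p = 0.0373). Piwil2 had 26.2 and 32.8 CPM in KO mESCs, against 27.2 and 24.4 CPM in NT mESCs (0.19 ± 0.13, adjusted p = 0.356). Tdrd1 had 4.70 and 5.45 CPM in KO mESCs, against 3.76 and 5.33 CPM in NT mESCs (0.17 ± 0.23, adjusted p = 0.684), and Tdrd9 stayed under 0.4 CPM in all 4 mESC libraries. In mESCs the summed level of 6 pluripotency markers was 2758 to 2937 CPM in KO and 3398 to 3594 CPM in NT, and that of 6 markers of day 3 EBs was 647 to 893 CPM in KO and 196 to 272 CPM in NT. The part of these differences in the members' levels was not tested.

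In EBs, 7 of the 10 members were higher in KO lines and none was lower, where 4.62% of 20142 genes were called higher and 2.77% lower. They were Fkbp6, Tdrd12, Piwil2, Mov10l1, Mael, Rnf17 and Ddx4. The median log2 fold change was 1.00 over the members and 0.01 over all genes, and both KO lines were above both NT lines for all 10 members, as for 25.9% of all genes, while 24.8% of genes had both KO lines below. The summed EB markers were 2838 to 3026 CPM in KO and 3099 to 3262 CPM in NT EBs, ranges much closer than in mESCs.

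Fkbp6 had 6.76 and 6.11 CPM in KO EBs, against 0.328 and 0.859 CPM in NT EBs (log2 fold change 3.41 ± 0.31, adjusted p = 3.35e-05). Tdrd12 had 28.0 and 35.5 CPM in KO EBs, against 6.59 and 6.92 CPM in NT EBs (2.23 ± 0.13, adjusted p = 1.02e-06). These were the same 2 members that differed most in mESCs. Piwil2 (ENSMUSG00000033644, chromosome 14, 70372477 to 70429383, minus strand) had 10.2 and 10.7 CPM in KO EBs, against 4.08 and 4.80 CPM in NT EBs (1.23 ± 0.15, adjusted p = 0.000313). Mov10l1 (ENSMUSG00000015365, chromosome 15, 88982909 to 89055152, plus strand) had 9.41 and 9.98 CPM in KO EBs, against 5.10 and 4.35 CPM in NT EBs (1.04 ± 0.15, adjusted p = 0.00126). By edgeR over all libraries, neither Piwil2 nor Mov10l1 was called higher in embryos or mESCs, though DESeq2 called Mov10l1 in embryos.

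Mael had 10.9 and 14.9 CPM in KO EBs, against 7.42 and 5.85 CPM in NT EBs (log2 fold change 0.96 ± 0.17, adjusted p = 0.00490). Rnf17 had 32.7 and 26.2 CPM in KO EBs, against 18.1 and 14.9 CPM in NT EBs (0.84 ± 0.12, adjusted p = 0.00138). Mael and Rnf17 were the only 2 of the 10 members called higher in embryos, mESCs and EBs alike. Ddx4 had 23.8 and 25.1 CPM in KO EBs, against 19.2 and 18.4 CPM in NT EBs (0.38 ± 0.09, adjusted p = 0.0239), a call that was lost without NT line 2 (adjusted p = 0.103) and in the fit of all 8 line libraries together (adjusted p = 0.0775). Tdrd1 had 15.3 and 15.8 CPM in KO EBs, against 11.7 and 12.9 CPM in NT EBs, and was not called (0.34 ± 0.11, adjusted p = 0.0909). With limma on log2(RPKM + 0.1) Mael (adjusted p = 0.0968), Rnf17 (adjusted p = 0.0815), Mov10l1 (adjusted p = 0.0535) and Ddx4 (adjusted p = 0.0793) were not called, and 3 members were, where 1.43% of all genes were called higher.

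Tdrd9 had 0.367 and 0.339 CPM in KO EBs, against 0.238 and 0.322 CPM in NT EBs (log2 fold change 0.33 ± 0.54, adjusted p = 0.799), and was called in none of the genotype comparisons. Asz1 had 6 and 8 counts in KO EBs, against 1 and 0 counts in NT EBs. The ratio of the depth-scaled counts was 11.4 with a 95% exact counting interval of 1.73 to 481, which covers counting error only, and the edgeR test did not call it (adjusted p = 0.161). In mESCs the authors' RPKM of Asz1 was 0.041 and 0.011 in KO, against 0.022 and 0 in NT.

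**Figure D3:**
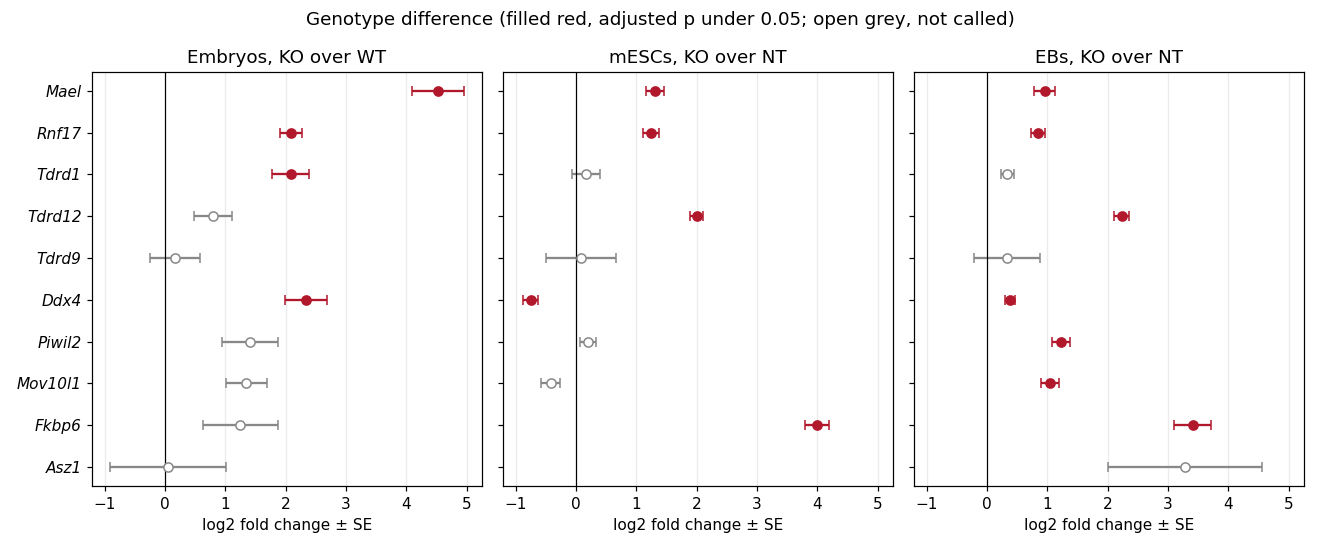
Log2 fold change with standard error of KO over WT embryos (left), KO over NT mESCs (middle) and KO over NT EBs (right), filled red where the edgeR adjusted p was under 0.05. Mael and Rnf17 are filled in all 3 panels, Ddx4 lies at -0.75 in mESCs and 0.38 in EBs, and Asz1 has no value in mESCs.

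Most members were lower in EBs than in mESCs in both genotypes, and Tdrd1 was higher. In KO lines 1 of the 9 members was higher in EBs than in mESCs and 5 were lower, where 23.1% and 22.1% of 18926 genes were called. In NT lines 1 was higher and 6 were lower, where 23.0% and 23.6% were called. Tdrd1 was the member that rose, with log2 fold changes of 1.61 ± 0.17 in KO and 1.45 ± 0.17 in NT lines (adjusted p = 7.48e-06 and 1.66e-05). Tdrd12 was lower in EBs in both genotypes, with log2 fold changes of -2.39 in KO and -2.62 in NT lines. So were Rnf17 (-1.58 in KO and -1.18 in NT lines), Piwil2 (-1.503 and -2.54) and Fkbp6 (-1.82 and -1.24). The Fkbp6 call in NT lines (adjusted p = 0.0101) was lost without NT mESC line 2 or NT EB line 1 (adjusted p = 0.0558 and 0.0888). Mael had -0.83 ± 0.17 in KO lines (adjusted p = 0.00172) and -0.47 ± 0.18 in NT lines (adjusted p = 0.0537, and 0.00331 with line as the replicate block).

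The change from mESC to EB differed by genotype for 3 of the 9 members, Mov10l1, Ddx4 and Piwil2, all in the direction of a higher EB level relative to mESC in KO lines, where 3.07% of 18926 genes were called in that direction and 2.18% in the other. Mov10l1 had a log2 fold change of EB over mESC of 0.08 ± 0.14 in KO lines and -1.38 ± 0.14 in NT lines, an interaction of 1.46 ± 0.20 (adjusted p = 0.00138). Ddx4 had 0.28 ± 0.11 in KO lines and -0.85 ± 0.11 in NT lines, an interaction of 1.13 ± 0.16 (adjusted p = 0.00172). Piwil2 fell in both genotypes, and less in KO lines, with an interaction of 1.03 ± 0.19 (adjusted p = 0.00973) that was not called without NT EB line 1 (adjusted p = 0.0554). These were the members called higher in KO EBs and not called higher in KO mESCs.

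For the other 6 members the interaction was not called, with values between -0.59 for Fkbp6 and 0.25 for Tdrd9. With line as the replicate block Rnf17 was also called (-0.41, adjusted p = 0.0195), and Ddx4 was called for the change within KO lines (0.28, adjusted p = 0.0229).

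**Figure D4:**
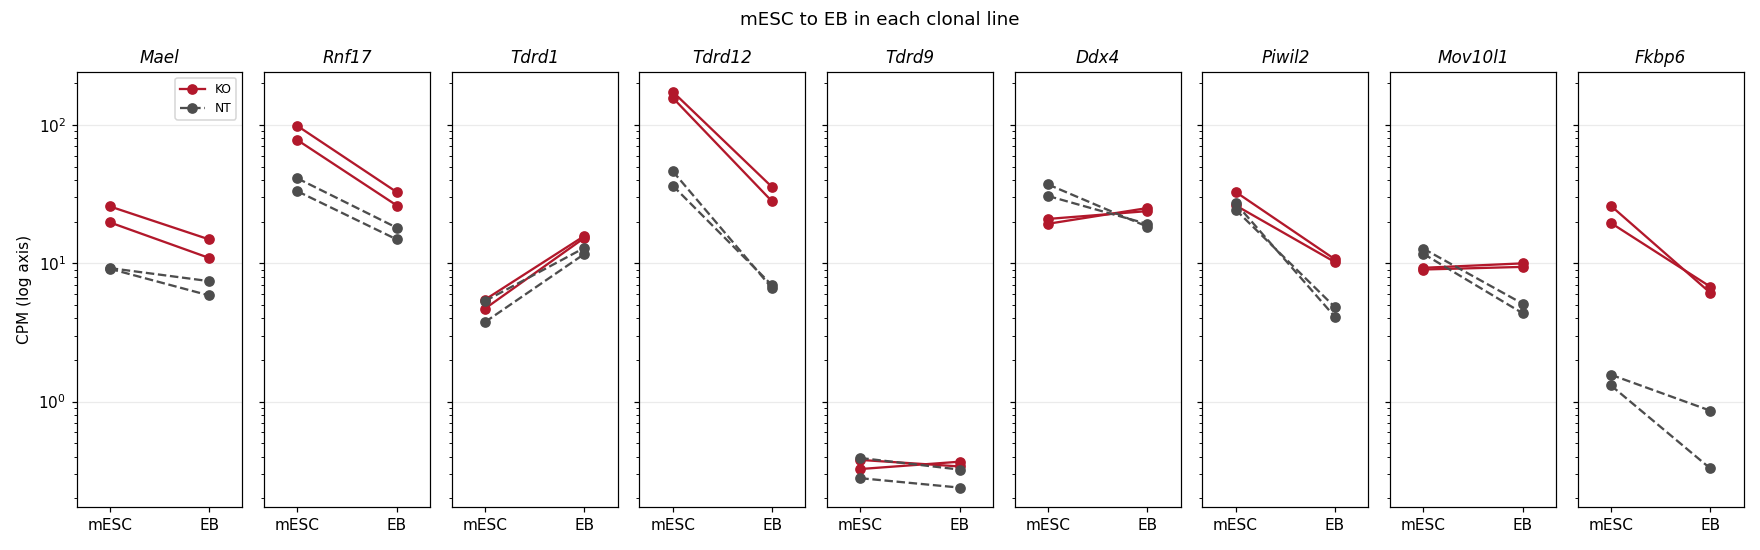
CPM (log axis) in mESCs and EBs, joined by line, for KO (red, solid) and NT (grey, dashed) lines. The KO and NT lines cross for Ddx4 and Mov10l1, run apart for Piwil2, and run side by side with KO above for Tdrd12 and Rnf17.

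Levels can be compared between genes only per length, for which the authors' RPKM were used. In KO embryos Ddx4 (7.26 ± 1.00 RPKM) and Rnf17 (6.59 ± 0.78 RPKM, SD, n = 6) were highest with overlapping ranges, and both were above Fkbp6 (2.89 ± 0.98 RPKM) in every embryo. In WT embryos Rnf17 (1.42 ± 0.31 RPKM), Ddx4 (1.31 ± 0.73 RPKM) and Fkbp6 (1.09 ± 1.32 RPKM) led, with ranges that overlapped. Mael ranked 4 of 10 in KO embryos (2.04 ± 1.14 RPKM) and 9 of 10 in WT embryos (0.0803 ± 0.0248 RPKM), and Tdrd9 was last in both. In KO mESCs Tdrd12 was highest at 35.3 and 39.8 RPKM, apart from Rnf17 at 15.3 and 12.3 RPKM, whereas in NT mESCs Ddx4 (10.05 and 12.1 RPKM) and Tdrd12 (10.6 and 8.25 RPKM) overlapped. In KO EBs Ddx4 (8.03 and 8.58 RPKM), Mael (6.40 and 8.85 RPKM) and Tdrd12 (6.55 and 8.45 RPKM) overlapped, and in NT EBs Ddx4 (6.45 and 6.16 RPKM) was above Mael (4.33 and 3.41 RPKM). Over the 29 pairs of member and stage with counts, the KO mean was above the control mean in 27 by CPM and in 27 by RPKM. This tally counts a gene once per stage and includes differences within error, such as Tdrd9 in mESCs (0.352 and 0.335 CPM). Over all genes the edgeR log2 fold change was positive for 11890 of 22729 in embryos, 10398 of 20159 in mESCs and 10283 of 20142 in EBs.

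Of 23 other genes of the pathway, 22 were found in the tables. This list too was chosen with earlier results of these data known. In embryos 4 of the 22 were higher in KO and none was lower, beside 0.510% and 0.0132% of all genes, and their median log2 fold change was 0.41. Morc1, which acts in transposon silencing in the male germ line, had 3.36 ± 0.788 CPM in KO and 0.235 ± 0.149 CPM in WT embryos (SD, n = 6 embryos of each genotype), a log2 fold change of 3.84 ± 0.40 (edgeR adjusted p = 0.000257). Tex15, a nuclear partner of the pathway, had 20.9 ± 4.81 CPM in KO and 5.34 ± 1.01 CPM in WT embryos (1.97 ± 0.19, adjusted p = 0.000178). Tcfl5, a transcription factor of spermatocytes, and Exd1, a piRNA biogenesis factor, were the other two (1.85 and 1.29). Prmt5 and Wdr77, the arginine methyltransferase pair that most cells express, were not called, at 224 to 278 and 144 to 160 CPM in KO embryos, against 207 to 275 and 141 to 163 CPM in WT embryos.

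In mESCs 6 of the 22 were higher in KO and 1 was lower, beside 10.3% and 8.94% of all genes, with a median log2 fold change of 0.21. Those higher were Morc1 (2.00), Gtsf1 (2.14), Gpat2 (1.76), Stk31 (1.38), Dnmt3l (1.32) and Tcfl5 (0.43), and Tdrd5 was lower (-0.62). In EBs 6 were higher and none was lower, beside 4.62% and 2.77% of all genes, with a median of 0.53. They were Gpat2 (2.27), Morc1 (2.23), Piwil1 (1.89), Tex15 (1.62), Stk31 (0.81) and Dnmt3l (0.57). Morc1 was thus called higher in all 3 genotype comparisons, as were Mael and Rnf17. From mESC to EB, 4 of the 22 were higher and 9 lower in KO lines, beside 23.1% and 22.1% of all genes. In NT lines 5 were higher and 12 lower, beside 23.0% and 23.6%. The interaction was called for 1 of the 22, Tex15, beside 3.07% of all genes (1.46 ± 0.17, adjusted p = 0.000570).

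The mean profile of the 9 members with values in all 3 tables was compared with 13744 other genes over 20 libraries, each gene centred on its mean log2 CPM within embryos and within lines. Among the nearest 5 by mean absolute difference were Slc25a31 (0.289), Brdt (0.306), Csf2ra (0.316) and Fsd1l (0.335), where the median gene was at 0.832. Among the members themselves, Rnf17 lay nearest to the mean profile at 0.230 and Fkbp6 farthest at 0.921, beyond the median gene. Each member is part of that profile, which makes its distance smaller than one to the mean of the other members. The median was taken with members and other pathway genes included. Fsd1l was called higher in embryos, mESCs and EBs (log2 fold changes 2.01, 1.32 and 1.72), and Brdt, a testis bromodomain gene, was called higher in embryos alone (1.91, adjusted p = 0.0139). The points share libraries, and these genes were picked by closeness to a profile from the same libraries. These distances and calls are therefore a description.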

How the data were processed

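Reads were trimmed with Trimmomatic (0.34), aligned to mm10 (GRCm38) with STAR (2.7.8a) and processed with Picard (2.9.0), per the submitters' processing notes. The authors deposited raw counts from HTSeq-count, without normalization, a score and RPKM. The score beside each count is the authors' own scaling of it and was not tested. RPKM came from StringTie (1.3.5) by the authors. The libraries were stranded, but the annotation and strand setting of the counting are not given in the sources used here, so reads of overlapping antisense genes may be included. No gene in the tables had fewer than 10 counts in total, so the filter at 10 counts removed none from fits of all libraries of a table. In fits of fewer libraries it removed some, leaving for example 20626 genes within the H series and 21505 in females alone. Shares of all genes given for such fits are of the genes tested in them.

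Counts were compared with edgeR (4.0.16) in R (4.3.3), by TMM scaling and the two-sided quasi-likelihood test, fitted over all genes of a table (embryos, mESCs, EBs) or over the 18926 genes shared by mESCs and EBs. Calls were made at 0.05 after Benjamini-Hochberg adjustment, and the standard error of a log2 fold change is its absolute value divided by the square root of F. Fits were tested on simulated data. Alternatives were DESeq2 (1.42.0), RLE, filterByExpr, limma (3.58.1) on log2(RPKM + 0.1), a fit of all 8 line libraries, leaving out each library, sex, series or litter terms, single sexes or series, and a replicate block. Column names number the lines alike at both stages, read here as the same clonal lines, whose deviations correlated at 0.374 (KO) and 0.153 (NT). Labels do not say whether line libraries are separate differentiations, so p-values measure the spread between these samples.

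The text names the 10 members, Zmym2, the other pathway genes called (up to 6 per comparison by smallest p, with Prmt5, Wdr77 and Tdrd5 added after their values were seen) and the 5 genes nearest to the mean member profile (log2 CPM with a prior count of 2, mean of at least 1 CPM), of which 1 is not reported here. Members and lists were chosen with earlier results of these data known. Gene coordinates are from GENCODE vM21 (GRCm38).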

Additional observations from a re-analysis of the deposited data

Results flagged for a closer look

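In 3 of the 20 groups of 6 embryos tested (10 members, 2 genotypes), 1 embryo stood apart from the other 5 by Dixon's 95% criterion. Its rate of about 1 in 20 groups is for independent, normally distributed values. The groups share embryos and the rate over all genes was not computed, so this number is not set against chance. KO embryo 4 had 6.16 CPM of Asz1, and the next KO embryo 0.891 CPM. WT embryo 2 had 5.50 CPM of Asz1 and 7.21 CPM of Fkbp6, and the next WT embryo, WT embryo 1, had 1.15 and 2.43 CPM. KO embryo 4 had 271 CPM over the 8 primordial germ cell markers and WT embryo 2 had 280 CPM, the highest WT value, while KO embryo 6, with 454 CPM, had 0.891 CPM of Asz1. These markers are not particular to germ cells, and the part of germ cell content in these levels was not tested.

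The change from mESC to EB differed between KO and NT lines by the interaction test for Mov10l1 (1.46), Ddx4 (1.13) and Piwil2 (1.03, all on the log2 scale).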

How the results depend on the processing

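No result that was called changed direction under any alternative run. In embryos, 4 members were called, and 4 in males alone, with Mov10l1 in place of Ddx4. The count was 0 within the H series, 2 within the J series, 1 in females alone and 0 with litter as block over 7 embryos. All of these alternatives, males alone included, used fewer embryos, and why their counts differed was not tested. In EBs 3 members were called with limma on log2(RPKM + 0.1), against 7. For the sex by genotype interaction DESeq2 called 2 members and leaving out single embryos called 0 to 3 (3 without WT embryo 3), against 0. The replicate block left the count at 4 in embryos, 5 in mESCs and 7 in EBs, and gave 7 (KO) and 8 (NT) for EB against mESC and 4 for the interaction. The shares of all genes called with the replicate block or without single embryos are not given here. Those counts are therefore not read as a result about the members. Embryo numbers do not pair embryos (correlations of same-numbered embryos -0.45 to 0.41). Over 66 single-member results and their 986 alternative values, 919 kept direction and call, 24 lost the call, 20 gained it and 23 changed direction.

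The changes of direction were in 9 results that were not called, of which the Fkbp6 interaction was farthest from 0 (-0.59) and the others lay between -0.23 and 0.17. Asz1 in embryos was -2.53 in males alone, -1.77 without KO embryos 4 to 6 (chosen after seeing the data) and -1.44 to 1.3 without single embryos. Tdrd9 in embryos was -0.65 in females alone and -0.048 to 0.42 without single embryos. Tdrd9 for EB against mESC in KO lines was -0.00402 with DESeq2, -0.00036 with RLE and -0.0106 with filterByExpr. Without single libraries it was -0.093 to 0.12 there, -0.47 to 0.012 in NT lines and -0.15 to 0.33 in mESCs. Tdrd1 was -0.073 to 0.44 in mESCs and -0.10 to 0.41 for the interaction, Fkbp6 -1.07 to 0.29 for the interaction, and Rnf17 -0.37 to 0.087 for sex by genotype. The causes were not tested. Few counts underlie Mael in WT embryos (38 in total), Tdrd9 in every group and Asz1 in EBs (14 in KO and 1 in NT). Asz1 in embryos had 405 counts in KO and 322 in WT, of which KO embryo 4 held 252 and WT embryo 2 held 200.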
